A study of Mus musculus with 12 samples.

Results

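The 33 genes described here encode enzymes and regulators of cholesterol and fatty acid synthesis. They were picked by symbol from a list of pathway members and kept where a gene had at least 1 TPM (a length-corrected share of a library's transcripts) in at least 2 of the 12 libraries. All 33 of the 33 listed genes met that rule, out of 24589 genes in the table, of which 11152 met the same expression rule and were tested. By role they are 7 genes of carbon supply and the mevalonate pathway, 11 of the sterol branch from squalene to cholesterol, 6 of sterol sensing and transport, 5 of fatty acid synthesis and elongation and 4 fatty acid desaturases. Me1 lay just inside the rule, at 0.30 to 0.84 TPM in the WT libraries and 0.65 to 1.26 in the KO libraries, and it met the rule only through the KO libraries. No listed gene lay outside it.

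The cells were NRAS/AE9a leukemic cells, a mouse acute myeloid leukemia line whose name refers to the NRAS oncogene and the AML1-ETO9a fusion. Their genotype was wild type (WT) or knockout of Tet2 (KO), TET2 being an enzyme that oxidises 5-methylcytosine, and the labels do not say how the knockout was made or whether a line was 1 clone. All groups grew in medium with SCF, IL-3, IL-6, G418 and puromycin, and received actinomycin D at 5 µg/ml. RNA was taken at 0, 4 and 8 h of the drug, giving 6 groups of 2 libraries. Whether both libraries of a group stem from different cultures is not stated, and p-values therefore cover only a spread that may be technical. Since 1 line stands for each genotype, Tet2 loss and any other difference between the lines cannot be told apart.

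Tet2 itself ranged from 5.66 to 16.03 TPM over the WT libraries and from 4.32 to 10.19 over the KO libraries, and a gene-level value cannot say which exons are present. Between 9093 and 10827 genes reached 1 TPM in a library. The 10 most abundant genes took 22.0% and 17.8% of all TPM in the WT pair at 0 h, and 13.4% in each KO library at 0 h. The 10 markers of mature myeloid cells summed to 60004 to 85562 TPM in WT and 38522 to 39083 in KO cells at 0 h, and 8 of the 10 were lower in KO. The 8 markers of mast cells and basophils summed to 1071 to 1188 TPM in WT and 3270 to 3450 in KO cells at 0 h, with 3 of the 8 higher and 5 lower in KO. Of the 11 markers of adipocytes, hepatocytes and stroma 2 were tested, Pecam1 and Pdgfrb. The sum was 132 to 158 TPM in WT and 160.4 to 163 in KO cells at 0 h. Pecam1 made up nearly all of it, with 130 and 157 TPM in WT and 158 and 159 in KO. Pdgfrb had 0.93 and 0.68 TPM in WT and 2.54 and 3.10 in KO, and each other marker of that list was under 1 TPM. Of the 5 B cell markers none was tested, with a sum of at most 1.02 TPM, and only 1 of 6 T and NK cell markers was tested. All 12 markers of leukemic and myeloid progenitors were tested, with sums of 3193 to 3594 TPM in WT and 3179.9 to 3199.9 in KO cells at 0 h. Behind these similar sums 3 of the 12 were higher and 7 lower in KO, against 14.3% and 11.5% of all genes. Mpo had 28.5 and 33.5 TPM in WT and 146 and 137 in KO at 0 h. Elane went the other way, with 89.0 and 96.25 in WT and 29.1 and 27.6 in KO. The myeloid and mast cell sums differ between the genotypes at every time, and their part in the results below was not tested. In these bulk samples, fewer cells of a type and less RNA per cell cannot be told apart.

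Cells make cholesterol from acetyl-CoA through mevalonate, isoprenoid diphosphates and squalene, and they make fatty acids from the same acetyl-CoA through malonyl-CoA. Both routes are switched on by the SREBP transcription factors, encoded by Srebf1 and Srebf2. When sterols in the endoplasmic reticulum run low, the escort protein SCAP carries SREBP to the Golgi, where proteases release its active part, and INSIG proteins hold this complex back when sterols are plentiful. Many promoters of the pathway combine a sterol regulatory element with a CCAAT box, which is bound by the factor NF-Y. Actinomycin D blocks transcription, so that the transcripts present at its addition can be followed as they are lost.

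Since the members share this transcriptional control, promoter sequences of 5 of them are shown. Hmgcs1 had the deepest loss next to Sqle, and Mvk and Mvd both belong to the mevalonate pathway. Fasn had the largest difference in loss between the genotypes, and Acly is a member with no CCAAT box. Each sequence is the 150 bases before a RefSeq transcript start on GRCm38.p6, written 5′ to 3′ on the gene's strand, outside every GENCODE M21 exon. Capitals mark CCAAT or its reverse complement ATTGG, and in Hmgcs1 also a match to TCACNCCAC, a part of the classical sterol regulatory element.
Hmgcs1, chr13:119690201-119690350, plus strand: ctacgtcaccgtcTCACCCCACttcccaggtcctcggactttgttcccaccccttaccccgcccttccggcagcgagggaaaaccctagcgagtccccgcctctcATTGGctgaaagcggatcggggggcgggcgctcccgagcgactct
Mvk, chr5:114444119-114444268, plus strand: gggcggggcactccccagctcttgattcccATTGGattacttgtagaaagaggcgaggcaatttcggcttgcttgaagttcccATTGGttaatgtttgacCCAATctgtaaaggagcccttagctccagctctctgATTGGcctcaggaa
Mvd, chr8:122443423-122443572, minus strand: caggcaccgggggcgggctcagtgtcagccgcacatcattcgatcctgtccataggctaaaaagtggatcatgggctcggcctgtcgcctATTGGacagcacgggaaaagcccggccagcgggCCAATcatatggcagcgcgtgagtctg
Fasn, chr11:120824548-120824697, minus strand: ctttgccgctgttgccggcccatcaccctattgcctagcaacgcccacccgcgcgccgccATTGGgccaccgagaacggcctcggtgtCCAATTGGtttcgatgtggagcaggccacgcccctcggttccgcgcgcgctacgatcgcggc
Acly, chr11:100528001-100528150, minus strand: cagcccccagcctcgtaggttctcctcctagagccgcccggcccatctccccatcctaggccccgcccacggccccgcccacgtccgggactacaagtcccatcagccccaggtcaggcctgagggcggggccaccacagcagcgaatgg
In Fasn, CCAAT and ATTGG overlap in 1 place. Within 250 bases before any of their RefSeq starts, 20 of the 26 members in the promoter table (76.9%) held CCAAT on either strand, against 41.0% of 8686 tested genes and 37.5% of all 27025 genes in the table. The 26 members have 35 starts there, since a gene can have several. TCACNCCAC, searched on both strands, was present in 1 of the 26, Hmgcs1 (3.8%), against 1.2% of tested genes. These are matches of letters, not binding sites. Fads1, Fdft1, Fdps, Scd1, Scd2, Sqle and Stard4 are not in the table.

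Before actinomycin D, 8 members were higher in KO cells and 1 was lower, at a limma adjusted p under 0.05. They were Acat2, Pmvk, Cyp51, Fasn and the desaturases Scd1, Scd2, Fads1 and Fads2 on the higher side, and Fdps on the lower side. Over all tested genes 14.3% were higher and 11.5% lower in this comparison. At 4 h 19 members were higher and 2 lower, against 24.9% and 13.7% of all genes. By 8 h 25 of the 33 were higher and 0 lower, against 37.3% and 12.1%. The members' median log2 change, KO minus WT on the log2(TPM + 1) scale, was 0.22 at 0 h, 0.38 at 4 h and 0.60 at 8 h, beside 0.06, 0.10 and 0.20 over all genes. With libraries scaled by the median ratio over genes, the split was 11 higher and 1 lower at 0 h (13.1% and 11.8% of all genes), 14 to 2 at 4 h (19.9% and 18.3%), and 18 to 1 at 8 h (25.7% and 23.5%). The number of members past the threshold at 0 h was 5 instead of 9 without WT 0 h replicate 1 or without KO 0 h replicate 1. Over all genes, 8.76% were then higher and 11.9% lower without that WT library, with a median of -0.02, and 7.49% and 8.05% without that KO library. Acat2, Fdps, Fasn, Scd1 and Fads2 kept their call in all 13 alternatives. At 4 h the members' median was 0.31 to 0.40 without any 1 of the 4 libraries compared, beside 0.10 to 0.11 over all genes. Fewer members, and fewer of all genes, passed in each of these fits than with all libraries.

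**Figure D1:**
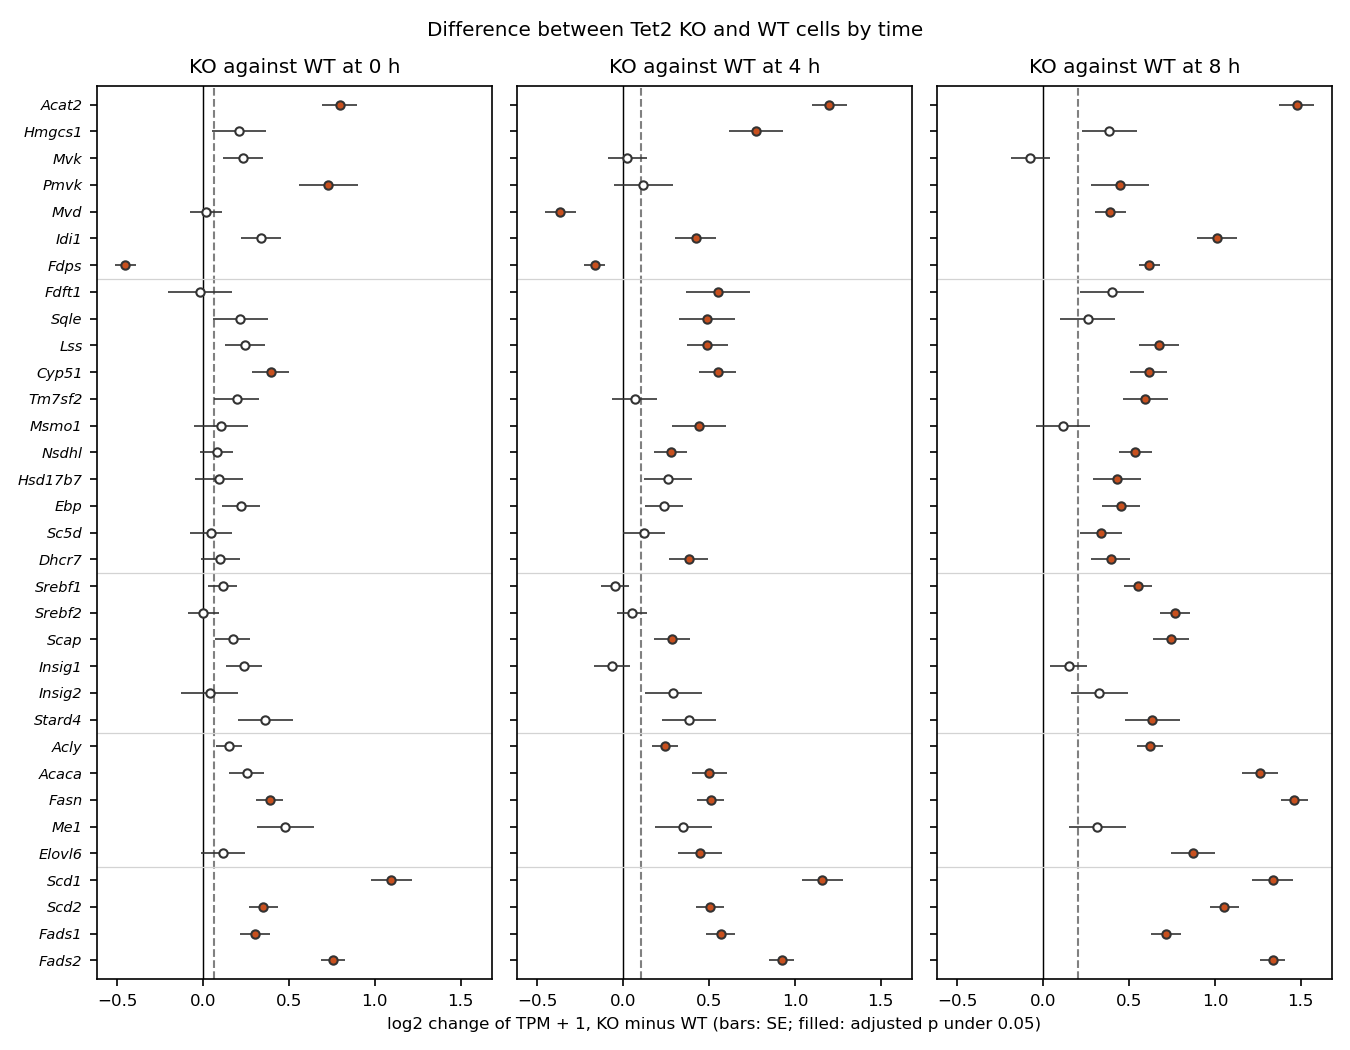
log2 change of TPM + 1 between Tet2 KO and WT cells at 0, 4 and 8 h of actinomycin D for the 33 members, in groups by role from the mevalonate pathway (top) to the desaturases (bottom). Points are limma estimates from 2 libraries per group with SE bars, filled points have an adjusted p under 0.05, and the dashed line is the median of all 11152 tested genes. Filled points number 9, 21 and 25 from left to right, and Fdps moves from -0.45 to 0.62.

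The mevalonate genes did not all go the same way at 0 h. Acat2, a cytosolic thiolase that makes acetoacetyl-CoA at the head of the pathway, was higher in KO cells at all 3 times, and Fdps, which makes farnesyl diphosphate, was lower in KO at 0 h and higher at 8 h. Acat2 had 31.3 and 30.3 TPM at 0 h, 14.4 and 16.3 by 4 h, and 8.19 and 7.05 by 8 h in WT cells. In KO cells it had 54.5 and 53.99 TPM at 0 h, 38.3 and 34.7 by 4 h, and 22.1 and 23.8 by 8 h. Each pair of KO libraries lay above the WT pair of its time. The log2 difference was 0.80 ± 0.10 at 0 h (SE, adjusted p = 0.000124) and 1.48 ± 0.10 at 8 h (adjusted p = 3.12e-07), where WT cells had 24.7% of their 0 h TPM and KO cells 42.3%.

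Fdps had 252 and 265 TPM in WT and 190.4 and 187 in KO cells at 0 h. At 4 h the values were 187 and 181 in WT and 166 and 162 in KO, and at 8 h they were 74.8 and 73.4 in WT and 112 and 117 in KO. The libraries did not overlap at any time, with WT above KO at 0 and 4 h and below it at 8 h. The differences were -0.45 ± 0.06 (SE; adjusted p = 0.000188) at 0 h, -0.17 ± 0.06 (SE; adjusted p = 0.0475) at 4 h and 0.62 ± 0.06 (SE; adjusted p = 4.95e-06) at 8 h. The 4 h call, the one with the smallest margin, did not hold in all alternatives, while those at 0 and 8 h did.

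Mvd, the decarboxylase that makes isopentenyl diphosphate, was lower in KO at 4 h (-0.37 ± 0.09, adjusted p = 0.00724) and higher at 8 h (0.39 ± 0.09, adjusted p = 0.00335), though the 8 h call was lost with median-ratio scaling. Idi1, which isomerises that product, had 59.97 and 66.7 TPM at 0 h, 49.2 and 47.6 by 4 h, and 19.7 and 21.8 by 8 h in WT cells. In KO cells it had 84.4 and 75.9 TPM at 0 h, 63.9 and 66.4 by 4 h, and 49.2 and 37.3 by 8 h. The KO libraries were higher at every time, and the difference passed the threshold at 4 h (0.42) and 8 h (1.01 ± 0.12, adjusted p = 1.86e-05). The kinase gene Pmvk had 10.7 and 15.3 TPM in WT and 23.1 and 20.7 in KO cells at 0 h, a difference of 0.73 ± 0.17 (adjusted p = 0.00773). Its WT pair is wide: without WT 0 h replicate 1 the difference was 0.49 and no longer passed. At later times Pmvk had 13.6 and 15.4 in WT and 17.6 and 14.2 in KO at 4 h, where the groups overlapped, and 7.51 and 7.74 in WT and 12.3 and 9.41 in KO at 8 h. Mvk, the kinase before it, had a difference of 0.23 at 0 h and -0.08 at 8 h, with neither past the threshold. Hmgcs1, the synthase that precedes mevalonate, passed at 4 h (0.77 ± 0.16, adjusted p = 0.00242) and not at 0 h (0.21) or 8 h (0.39).

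In the sterol branch 0 of 11 genes were lower in KO at these times. Higher were 1 at 0 h, 7 at 4 h and 8 at 8 h, against 14.3%, 24.9% and 37.3% of all genes. The gene at 0 h was Cyp51, the lanosterol demethylase, with 31.1 and 35.5 TPM in WT and 45.4 and 42.7 in KO libraries (0.39 ± 0.11, adjusted p = 0.0176). Cyp51 kept the gap later, with 21.2 and 19.6 TPM in WT against 30.2 and 30.4 in KO at 4 h, and 8.32 and 10.2 against 14.8 and 14.5 at 8 h. Differences at 8 h were 0.68 for Lss, which closes the sterol ring system, 0.60 for the reductase gene Tm7sf2, 0.54 for Nsdhl and 0.43 for Hsd17b7, both of C4 demethylation, 0.45 for the isomerase gene Ebp, 0.39 for the final-step reductase gene Dhcr7 and 0.33 for the desaturase gene Sc5d. With median-ratio scaling the 8 h calls of Tm7sf2, Hsd17b7, Ebp, Dhcr7 and Sc5d were lost, at 0.35, 0.23, 0.18, 0.13 and 0.08. Those of Cyp51, Lss and Nsdhl held in all 13 alternatives. Of the 7 calls at 4 h only that of Cyp51 held in all 13. The 4 h call was lost in 8 for Fdft1, 7 for Sqle, 7 for Msmo1, 6 for Nsdhl, 3 for Dhcr7 and 1 for Lss. The 0 h call of Cyp51 was lost without WT 0 h replicate 1 and without either KO library. Fdft1, Sqle and Msmo1 did not pass at 8 h, with differences of 0.40, 0.26 and 0.12. Fdft1 and Sqle were by then under 4 TPM, where the pseudocount of 1 compresses a ratio.

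At 0 h 0 of the 6 genes of sterol sensing and transport passed the limma threshold between the genotypes (2 had an unadjusted p under 0.05), 1 was higher in KO at 4 h and 4 at 8 h. Over all genes the share that was higher rose over the same times, as given above. Stard4 and Insig1 were the 2, with KO libraries above WT at 0 h and differences of 0.36 and 0.24. Srebf2, the SREBP of sterol synthesis, had 101 and 120.1 TPM in WT and 112 and 109 in KO cells at 0 h, and 92.9 and 91.3 in WT and 100.2 and 90.7 in KO at 4 h. At 8 h the WT libraries had 49.5 and 53.8 TPM and the KO libraries 87.8 and 89.2. The groups overlapped at 0 and 4 h, and at 8 h the KO libraries were well above, by 0.77 ± 0.09 (adjusted p = 1.65e-05). Its difference at 0 h was 0.00 ± 0.09.

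Scap, the escort, had 24.5 and 28.96 TPM at 0 h, 23.8 and 23.3 by 4 h, and 16.1 and 16.2 by 8 h in WT libraries. KO libraries had 30.5 and 29.7 TPM at 0 h, 31.1 and 26.9 by 4 h, and 28.9 and 26.6 by 8 h. The KO values ranged from 26.6 to 31.1 TPM over the 3 times, and the WT values at 8 h were below all others. The difference was 0.17 ± 0.10 at 0 h, not past the threshold, 0.28 ± 0.10 at 4 h (adjusted p = 0.0469) and 0.74 ± 0.10 at 8 h (adjusted p = 8.03e-05). The 4 h call was lost in 7 of 13 alternatives, with an adjusted p of up to 0.313, and the 8 h call held in all 13.

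Srebf1, whose isoforms drive fatty acid genes, had 64.2 and 69.00 TPM at 0 h, 39.2 and 39.03 by 4 h, and 15.2 and 16.3 by 8 h in WT cells. KO cells had 70.4 and 73.8 TPM at 0 h, 39.3 and 36.3 by 4 h, and 23.9 and 23.1 by 8 h. The 4 h libraries overlapped and the 8 h libraries did not (0.55 ± 0.08, adjusted p = 0.000134). The retention factors gave no call between the genotypes at any time. Insig1 had 51.3 and 57.6 TPM at 0 h, 27.1 and 29.01 by 4 h, and 17.3 and 20.4 by 8 h in WT cells. In KO cells Insig1 had 66.2 and 62.5 TPM at 0 h, 28.8 and 24.9 by 4 h, and 21.3 and 20.6 by 8 h, with a difference of 0.15 at 8 h. Insig2 was low throughout, with 11.4 and 12.4 TPM at 0 h, 8.92 and 5.56 by 4 h, and 6.81 and 7.40 by 8 h in WT cells. KO cells had 11.9 and 12.7 TPM at 0 h, 8.40 and 9.38 by 4 h, and 9.29 and 9.03 by 8 h (0.33 at 8 h, adjusted p = 0.123). Its WT 4 h libraries differed from each other by more than the genotypes did at 0 h.

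Fatty acid synthesis genes were higher in KO for 1 of 5 at 0 h and 4 of 5 at both 4 and 8 h. The shares over all genes were 14.3%, 24.9% and 37.3%. Fasn, the synthase itself, had 109 and 123 TPM in WT and 152 and 151 in KO cells at 0 h. It had 67.7 and 67.97 in WT and 99.97 and 93.98 in KO at 4 h, and 26.8 and 29.4 in WT and 79.7 and 78.5 in KO at 8 h. The gap widened from 0.39 ± 0.08 at 0 h to 1.46 ± 0.08 at 8 h (adjusted p = 5.05e-08), with no overlap of libraries at any time.

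Acaca, the carboxylase that makes malonyl-CoA, had 22.8 and 25.9 TPM at 0 h, 13.6 and 13.6 by 4 h, and 4.24 and 4.78 by 8 h in WT cells. KO cells had 29.8 and 28.5 TPM at 0 h, 19.8 and 19.5 by 4 h, and 11.8 and 12.7 by 8 h, above the WT pair each time. The difference was 0.25 at 0 h (adjusted p = 0.098) and 1.26 ± 0.10 at 8 h (adjusted p = 1.22e-06). Elovl6, an elongase of saturated fatty acids, had 34.1 and 39.96 TPM at 0 h, 19.7 and 22.2 by 4 h, and 6.08 and 7.90 by 8 h in WT cells. KO cells had 42.1 and 38.2 TPM at 0 h, 28.4 and 29.4 by 4 h, and 12.8 and 14.3 by 8 h, overlapping WT at 0 h and 0.87 ± 0.13 higher at 8 h. Acly, which supplies cytosolic acetyl-CoA from citrate, had 119 and 135 TPM at 0 h, 124 and 121 by 4 h, and 87.7 and 93.4 by 8 h in WT cells. In KO cells it had 143 and 139 TPM at 0 h, 145 and 145 by 4 h, and 145 and 135 by 8 h, with no call over time, and was 0.62 ± 0.08 higher than WT at 8 h (adjusted p = 2.51e-05). Me1, the malic enzyme that supplies NADPH, had 0.30 and 0.44 TPM at 0 h, 0.53 and 0.44 by 4 h, and 0.73 and 0.84 by 8 h in WT cells. KO cells had 0.77 and 1.05 TPM at 0 h, 0.65 and 1.17 by 4 h, and 1.18 and 1.26 by 8 h, and Me1 passed the threshold between the genotypes at none of the 3 times.

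All 4 desaturase genes were higher in KO cells at 0, 4 and 8 h, against 14.3%, 24.9% and 37.3% of all genes. Scd1, a stearoyl-CoA desaturase, had 15.7 and 17.8 TPM at 0 h, 15.8 and 14.9 by 4 h, and 11.9 and 12.5 by 8 h in WT cells. KO cells had 36.8 and 37.1 TPM at 0 h, 35.01 and 36.00 by 4 h, and 37.1 and 28.2 by 8 h. Even the lowest KO library was above every WT library. Its difference at 0 h was 1.10 ± 0.12 (adjusted p = 3.7e-05), the largest of the 33 at that time, and 1.34 ± 0.12 at 8 h. Scd2, the paralog with the most TPM of all members, had 368 and 426 TPM at 0 h, 243 and 239 by 4 h, and 116 and 134 by 8 h in WT cells. KO cells had 514 and 497 TPM at 0 h, 353 and 332 by 4 h, and 262 and 260.2 by 8 h, with no overlap at any time. That gap was 0.35 ± 0.08 at 0 h and 1.06 ± 0.08 at 8 h. Scd1 and Scd2 are close in sequence and how the counting split shared reads is not given in the sources used here, so each value is uncertain to that extent.

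Fads1 and Fads2 are the front-end desaturases of polyunsaturated fatty acid synthesis, and lie on chromosome 19 in opposite orientations (GRCm38, 10182888 to 10196874 on the plus strand and 10062765 to 10101746 on the minus strand). Fads2 had 86.4 and 97.96 TPM at 0 h, 101 and 101 by 4 h, and 73.4 and 76.5 by 8 h in WT cells. In KO cells it had 160.4 and 152 TPM at 0 h, 195 and 189.7 by 4 h, and 192 and 189.6 by 8 h, and with TPM as deposited it was the only member past the threshold above its own 0 h level there. The genotype difference was 0.76 ± 0.07 at 0 h (adjusted p = 1.17e-05) and 1.34 ± 0.07 at 8 h (adjusted p = 5.04e-08). Fads1 had 45.4 and 51.2 TPM at 0 h, 28.4 and 27.2 by 4 h, and 22.99 and 25.2 by 8 h in WT cells. KO cells had 60.6 and 58.7 TPM at 0 h, 40.7 and 42.8 by 4 h, and 40.3 and 40.05 by 8 h, with a smaller difference of 0.30 ± 0.09 at 0 h and 0.71 ± 0.09 at 8 h. The 0 h calls of Scd2 and Fads1 were lost when WT 0 h replicate 1 or KO 0 h replicate 1 was left out, while those of Scd1 and Fads2 held.

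**Figure D2:**
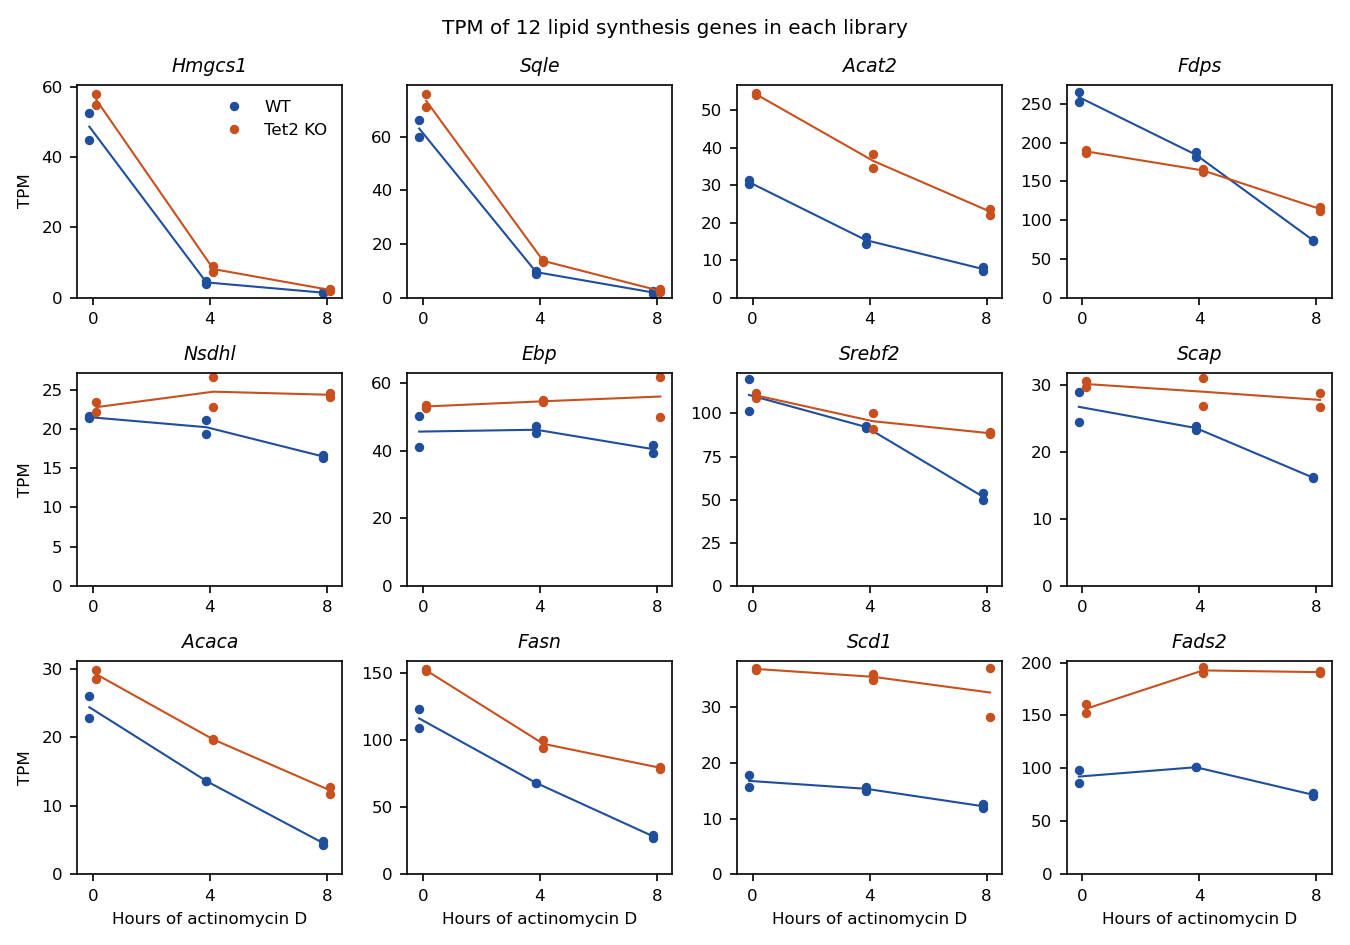
TPM in each of the 12 libraries against hours of actinomycin D for 12 members, WT in blue and Tet2 KO in orange, with 2 points per group and lines through the group means. At 8 h Hmgcs1 and Sqle are at 1.21 to 3.06 TPM in both genotypes, and Fads2 in KO lies above its 0 h values. Of the plotted genes past the threshold below 0 h in KO as deposited, median-ratio scaling places Acat2, Fdps, Srebf2, Acaca and Fasn above 0 h. Hmgcs1 and Sqle stay below it.

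After transcription was blocked the members left the RNA pool to very different extents. No RNA standard is named and TPM sum to the same total in every library, so a loss here is a loss relative to the other transcripts. In WT cells 23 of 33 members were lower and 0 higher at 4 h than at 0 h, against 71% of all genes lower. At 8 h 30 were lower and 1 higher, against 80.2% lower and 8.48% higher among all genes. From 4 h to 8 h 28 were lower in WT, against 54.8%. In KO cells 23 were lower and 1 higher at 4 h (68% and 4.88% of all genes), 25 lower and 1 higher at 8 h (75.4% and 9.54%), and 19 lower from 4 h to 8 h (43.1%). The members' median change at 8 h was -1.33 in WT, beside -1.40 over all genes, and -0.89 in KO, beside -1.16. Summed over the 33, TPM went from 1867 and 2096 at 0 h to 718 and 775 at 8 h in WT, and from 2335 and 2273 to 1371 and 1327 in KO.

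These directions depend on the scale. Median-ratio scaling moved the median of all genes from -1.40 to -0.07 in WT at 8 h, and from -1.16 to -0.03 in KO. It then placed 16 members higher and 10 lower in WT at 8 h, against 37.7% and 41.1% of all genes, and 21 higher and 7 lower in KO, against 38.7% and 40.7%. At 4 h the split was 21 and 5 in WT (36.5% and 35.2%) and 23 and 4 in KO (37.1% and 34.5%). From 4 h to 8 h it was 9 and 14 in WT (28.9% and 22.5%) and 15 and 8 in KO (28.8% and 20.8%). Scaling to 20 housekeeping transcripts gave 1 higher and 30 lower in WT (10.4% and 77.3% of all genes) and 1 and 25 in KO (9.94% and 75.1%) at 8 h, and 3 higher and 16 lower in KO at 4 h (8.88% and 63.2%). The factors of that housekeeping scaling were 0.92 to 1.08, so it stays close to TPM as deposited and is no separate check of it. The 20 transcripts were not stable in TPM as deposited. At 8 h 10 were higher and 8 lower than at 0 h in WT, and 13 and 6 in KO. Hmgcs1, Sqle, Stard4, Fdft1, Msmo1 and Srebf1 were lower past the threshold at 8 h in both genotypes under each scaling.

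On the log2(TPM + 1) scale as deposited, Hmgcs1, Sqle, Stard4, Fdft1 and Msmo1 had the lowest changes of the 33 at 8 h in both genotypes. As a share of 0 h TPM, Acaca (18.5%) and Elovl6 (18.9%) kept slightly less than Msmo1 in WT. Sqle, the squalene epoxidase that commits carbon to sterols, had 60.01 and 66.2 TPM at 0 h, 10.1 and 8.95 by 4 h, and 1.53 and 2.30 by 8 h in WT cells. KO cells had 75.8 and 71.05 TPM at 0 h, 14.1 and 13.4 by 4 h, and 1.94 and 3.06 by 8 h. The 8 h libraries of the genotypes overlapped. Hmgcs1 had 44.9 and 52.5 TPM at 0 h, 4.70 and 3.98 by 4 h, and 1.21 and 1.61 by 8 h in WT cells. In KO cells Hmgcs1 had 57.9 and 54.8 TPM at 0 h, 8.88 and 7.39 by 4 h, and 2.58 and 1.75 by 8 h. By 4 h Sqle was at 15.1% of its 0 h TPM in WT and 18.7% in KO, and Hmgcs1 at 8.91% and 14.4%. At 8 h these shares were 3.03% and 3.40% for Sqle and 2.90% and 3.85% for Hmgcs1. Their log2 changes in WT, -4.47 ± 0.16 and -4.37 ± 0.16, stood at the 0.215th and 0.314th percentile of all tested genes.

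Stard4, a sterol transfer protein of the cytosol, had 33.9 and 38.2 TPM at 0 h, 9.51 and 7.99 by 4 h, and 2.39 and 3.52 by 8 h in WT cells. KO cells had 47.3 and 45.7 TPM at 0 h, 11.4 and 11.9 by 4 h, and 5.92 and 4.34 by 8 h. The squalene synthase gene Fdft1 had 19.2 and 20.1 TPM at 0 h, 5.35 and 4.92 by 4 h, and 1.13 and 2.35 by 8 h in WT cells. Its KO libraries had 19.6 and 19.1 TPM at 0 h, 8.46 and 7.52 by 4 h, and 2.20 and 2.89 by 8 h. At 8 h the WT cells kept 8.20% of Stard4 and 8.85% of Fdft1, and the KO cells 11.02% and 13.1%. Msmo1, a C4-methyl sterol oxidase, kept 19.3% in WT and 19.2% in KO. The difference between the genotypes in the change at 8 h passed the threshold for 0 of these 5. It was 0.04 ± 0.23 for Sqle, 0.18 ± 0.22 for Hmgcs1, 0.27 ± 0.23 for Stard4, 0.42 ± 0.26 for Fdft1 and 0.01 ± 0.22 for Msmo1 (SE), so that errors of this size still allow a difference in either direction.

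At the other end stood the 4 members with the highest changes in WT cells at 8 h. Other members also kept most of their 0 h TPM there, such as Nsdhl at 76.6% and Scd1 at 72.8%. Ebp had 41.01 and 50.3 TPM at 0 h, 45.2 and 47.2 by 4 h, and 41.7 and 39.2 by 8 h in WT cells. In KO cells Ebp had 52.8 and 53.4 TPM at 0 h, 54.3 and 54.98 by 4 h, and 61.9 and 50.1 by 8 h, above WT at 0, 4 and 8 h. Tm7sf2 had 11.1 and 8.65 TPM at 0 h, 11.8 and 12.2 by 4 h, and 9.60 and 8.01 by 8 h in WT cells. Its KO libraries had 11.5 and 11.2 TPM at 0 h, 12.03 and 13.3 by 4 h, and 13.4 and 14.2 by 8 h. Neither change at 8 h passed the threshold in WT (-0.16 and -0.14) or KO (0.07 and 0.26). Fads2 was at 81.4% of its 0 h TPM in WT (-0.29 ± 0.07, adjusted p = 0.002) and 122% in KO (0.29 ± 0.07, adjusted p = 0.00235), and median-ratio scaling placed it higher in both. With TPM as deposited, Me1 was the only member above its 0 h level at 8 h in WT, by 0.38 ± 0.17 (adjusted p = 0.0451), with all its WT values under 1 TPM. That call was lost without any 1 of the 4 libraries compared and in the fit of those groups alone, with an adjusted p of up to 0.164. Neighbouring enzymes could keep very different shares: in WT at 8 h Sqle kept 3.03% and Lss, which acts right after it, 49.98%.

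**Figure D3:**
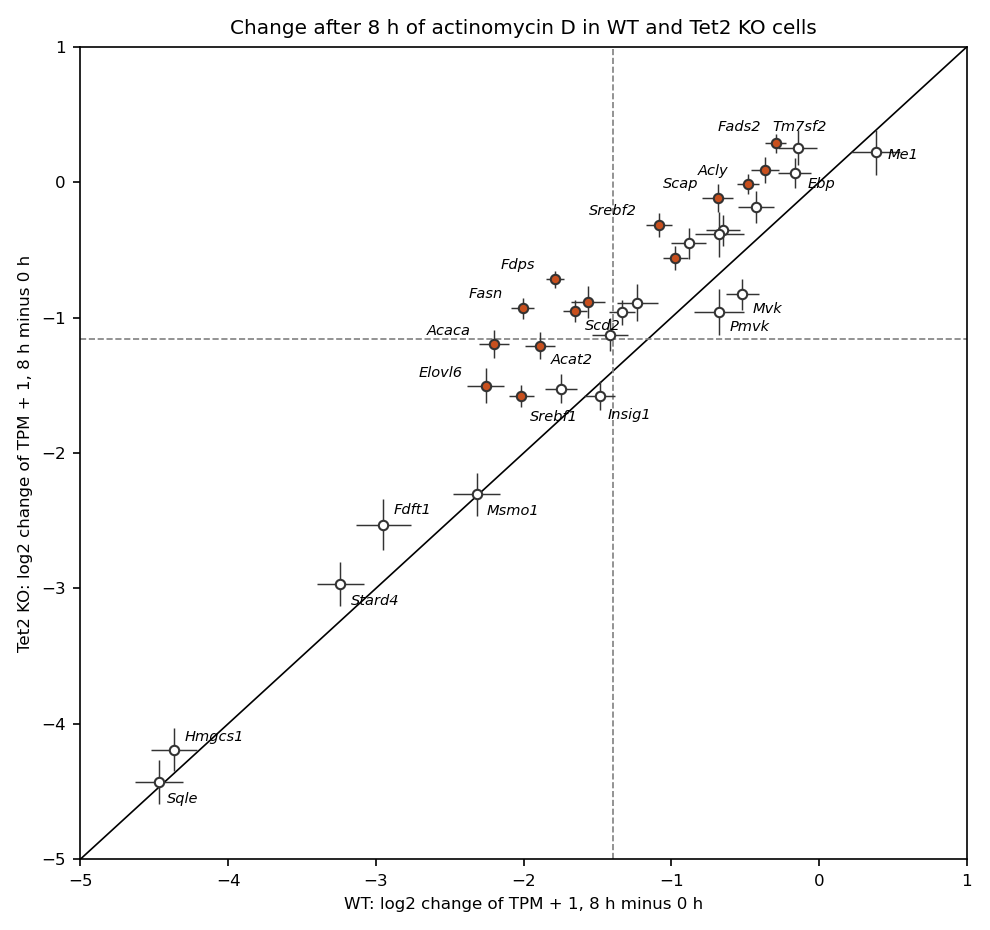
log2 change of TPM + 1 from 0 h to 8 h of actinomycin D in WT (horizontal) and Tet2 KO cells (vertical), 1 point per member with SE bars, a line of equal change and dashed medians of all tested genes. The 14 filled points, where the change differed between genotypes at an adjusted p under 0.05, all lie above the line, and Sqle and Hmgcs1 lie near it at the lower left. Among changes past the threshold, median-ratio scaling turns the sign of 18 in WT and 16 in KO, and points below it were not counted.

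The change from 0 h was then compared between the genotypes. These differences use the same 0 h libraries as the comparison at 0 h, and the 8 h libraries as the comparison at 8 h, so they are not separate evidence. At 4 h 0 of 33 members passed, with 5 at an unadjusted p under 0.05, and 0.35% of all genes passed in either direction. At 8 h 14 members passed, all with a smaller loss or a gain in KO cells, against 17.3% of all genes in that direction, and 0 the other way. The median difference was 0.40 over the members and 0.18 over all genes. By role the 14 were 3 of 7 mevalonate genes, 1 of 11 in the sterol branch, 3 of 6 regulators, 4 of 5 fatty acid synthesis genes and 3 of 4 desaturases. Median-ratio scaling gave 8 members in that direction and 1, Mvk, in the other, against 8.96% and 7.88% of all genes, whose median became -0.02. Without WT 0 h replicate 2 the members' median difference was 0.33, beside 0.11 over all genes. Without KO 0 h replicate 2 it was 0.38 beside 0.18. In both fits fewer members, and fewer of all genes, passed than with all libraries.

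Fasn differed most, at 1.08 ± 0.11 (SE; adjusted p = 0.000243). Its TPM at 8 h was 24.2% of the 0 h value in WT and 52.2% in KO. Fdps followed at 1.07 ± 0.09 (SE; adjusted p = 6.29e-05), keeping 28.7% in WT and 60.6% in KO, and Acaca at 1.01 ± 0.15 (SE; adjusted p = 0.00107), keeping 18.5% and 41.8%. For the regulators the difference was 0.76 ± 0.12 (SE; adjusted p = 0.00188) for Srebf2, 0.57 ± 0.15 (SE; adjusted p = 0.0176) for Scap and 0.44 ± 0.12 (SE; adjusted p = 0.0206) for Srebf1. Srebf2 kept 46.7% in WT and 80.1% in KO cells, and Scap 60.5% and 92.1%.

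Of the remaining genes that passed, Elovl6 differed by 0.75, Scd2 by 0.70, Acat2 by 0.68, Idi1 by 0.68, Fads2 by 0.58, Acly by 0.47 and Fads1 by 0.41. Nsdhl, the C4 decarboxylating dehydrogenase, was the 1 gene of the sterol branch, with 21.4 and 21.7 TPM at 0 h, 21.1 and 19.4 by 4 h, and 16.3 and 16.7 by 8 h in WT cells. KO cells had 22.2 and 23.4 TPM at 0 h, 22.9 and 26.7 by 4 h, and 24.6 and 24.2 by 8 h, for a difference in the change of 0.46 ± 0.14 (adjusted p = 0.0353). The KO libraries of Nsdhl lay between 22.2 and 26.7 TPM over the 3 times, while its WT libraries were lowest at 8 h. Fdps, Srebf2, Acly, Acaca, Fasn, Scd2 and Fads2 kept the call in all 17 alternatives. The call was lost in 10 of 17 for Nsdhl, 9 for Fads1, 7 for Srebf1 and 5 for Scap. Scd1, although higher in KO throughout, did not differ past the threshold in its change (0.24 ± 0.17, adjusted p = 0.35), nor did Cyp51 (0.22 ± 0.15). Mvk (-0.31), Pmvk (-0.28), Me1 (-0.16) and Insig1 (-0.09) had estimates below 0, none past the threshold. The difference between the 4 h and the 8 h contrast was not itself tested.

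Other genes of these pathways, from lists that hold no member, were read the same way. Of 8 tested genes of SREBP proteolysis and sterol-regulated degradation, 0 passed in limma between the genotypes at 0 h (1 at an unadjusted p under 0.05), and at 8 h 6 were higher in KO and 0 lower, with a median of 0.54 beside 0.20 over all genes. They include Mbtps1, which encodes the site-1 protease that cuts SREBP (0.14 at 0 h, 0.82 ± 0.10 at 8 h), and the erlin gene Erlin2 (0.70 ± 0.09). Of 8 other sterol and isoprenoid synthesis genes 1 was higher at 0 h and 4 at 8 h, with 0 lower and an 8 h median of 0.46, shares near the 14.3% and 37.3% over all genes. Among 23 further genes of fatty acid synthesis, elongation and activation, 7 were higher and 2 lower at 0 h, and 10 and 1 at 8 h, with an 8 h median of 0.28, the 8 h share of higher genes again being near 37.3%. Slc25a1, the mitochondrial citrate exporter that feeds Acly, was higher by 0.54 ± 0.08 at 0 h and 1.09 ± 0.08 at 8 h. Fabp5, a fatty acid binding protein, went from 0.48 ± 0.08 at 0 h to -0.47 ± 0.08 at 8 h, and Acsl1, an acyl-CoA synthetase, was lower at 0 h (-0.56 ± 0.11).

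Transcript features were read from GENCODE M21 for all 33 members and 94.4% of the tested genes. The median transcript length was 3460 nt for the members and 2909 nt for tested genes, and the median 3′ UTR (the untranslated end of the transcript) was 1498 and 971 nt. ATTTA, the core of AU-rich elements, was found on the transcript strand in the 3′ UTR of 24 of 33 members (72.7%) and of 66.1% of tested genes, and TTATTTATT, which contains it, in 2 members, Elovl6 and Hsd17b7 (6.1%), against 7.3%. The members lost fastest were not alike in this: Sqle had a 3′ UTR of 275 nt with 0 ATTTA, and Hmgcs1 one of 1782 nt with 4. Across the 33 members the 3′ UTR length and the WT change at 8 h had a Spearman rho of -0.28, beside -0.22 over 10523 tested genes. The members share libraries, so this is a description only.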

How the data were processed

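RNA was measured in 12 libraries, 2 for each of 2 genotypes and 3 times. Per the labels' protocols, TRIzol was used on total RNA, and a KAPA stranded mRNA kit for the libraries. The authors deposited TPM per gene. STAR, RSEM and mm10 are named in the submitters' processing notes, while versions, annotation and strand were not found there. Each column sums to 1000000 within 1, so depth is unknown and no counting interval is given. Of 24589 genes, 8737 were at 0 in every library and 27 had date-like names.

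Genes that reached 1 TPM in 2 or more libraries (11152) were fitted on log2(TPM + 1), which understates changes of low genes, with limma 3.58.1 in R 4.3.3: 1 mean per group over 12 libraries, 6 residual degrees of freedom, an empirical Bayes spread with a trend. Adjusted p are Benjamini-Hochberg values of limma over all tested genes, threshold 0.05; errors are SE. The test was checked on simulated data, in which every gene had the same spread and few genes changed. That setting is simpler than these data, where most genes changed over time. Shares left after actinomycin D are ratios of mean TPM.

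The members, gene lists and tests were chosen with earlier results of these data known. Described with library values were members past the threshold between genotypes at 0 h or in the difference of changes, 5 regulators, and the 4 lowest and 4 highest changes in WT at 8 h; from other lists, at most 4 with the smallest p at 0 h. Alternatives were median-ratio and housekeeping scaling, a mean of 5 TPM or more, no filter, pseudocounts of 0.1 and 0.5, no trend, the replicate number as a block, only the groups compared, and each library left out. Promoters are RefSeq's on GRCm38.p6, matched by symbol for 26 of 33 members. Python 3.11.15 and matplotlib 3.10.9 were used for sequences and figures.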

Additional observations from a re-analysis of the deposited data

Results flagged for a closer look

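For 14 of the 33 genes, the change from 0 h to 8 h of actinomycin D differed between Tet2 KO and WT cells by a test of the difference itself (limma contrast over 2 libraries in each of 4 groups, adjusted p under 0.05 over all tested genes). Values are KO minus WT on the log2(TPM + 1) scale, and all are above 0. The genes of fatty acid synthesis and desaturation were Fasn (1.08, adjusted p = 0.000243), Acaca (1.01, 0.00107), Elovl6 (0.75, 0.0128), Scd2 (0.70, 0.00204), Fads2 (0.58, 0.00264), Acly (0.47, 0.00976) and Fads1 (0.41, 0.0332). The regulators were Srebf2 (0.76, 0.00188), Scap (0.57, 0.0176) and Srebf1 (0.44, 0.0206). The genes of sterol synthesis were Fdps (1.07, 6.29e-05), Acat2 (0.68, 0.0071), Idi1 (0.68, 0.0148) and Nsdhl (0.46, 0.0353). Over all tested genes 17.3% passed in this direction.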

How the results depend on the processing

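TPM give no depth, so precision rests on 2 libraries per group, and low values such as those of Me1, Sqle and Hmgcs1 at 8 h are the least certain. No member past the threshold between the genotypes, or in the difference of changes, changed direction in the 13 or 17 alternatives; this was not counted for members below it or for the other lists. Of the values of single members, 11 of 117 lost the threshold at 0 h, 57 of 273 at 4 h, 33 of 325 at 8 h and 37 of 238 for the difference of changes at 8 h. Calls held in every alternative for 5 of 9 members at 0 h, 9 of 21 at 4 h, 17 of 25 at 8 h, and 7 of 14 for that difference. Leaving out 1 library gave 5 to 12 members past the threshold between genotypes at 0 h, 12 to 13 at 4 h and 20 to 26 at 8 h. In WT it gave 20 to 25 at 4 h, 30 to 31 at 8 h and 25 to 26 from 4 h to 8 h, and in KO 16 to 21, 24 to 25 and 15 to 19. For the difference of changes it gave 0 to 0 at 4 h and 8 to 16 at 8 h. A group left with 1 library is assumed to vary like the others. Housekeeping scaling gave 1 member for the difference at 4 h, and median-ratio scaling 9 for that at 8 h. The cause was not tested. Median-ratio scaling sets the typical gene near 0 by construction. Of the changes past the threshold it reversed 18 in WT at 8 h, which became Mvk 1.03, Pmvk 0.85, Mvd 0.30, Idi1 0.077, Lss 0.61, Nsdhl 1.24, Hsd17b7 0.19, Sc5d 0.19, Dhcr7 0.95, Srebf2 0.59, Scap 0.92, Insig1 0.15, Insig2 0.85, Acly 1.19, Scd1 1.15, Scd2 0.028, Fads1 0.67 and Fads2 1.38. In KO at 8 h it reversed 16, which became Acat2 0.18, Mvk 0.49, Pmvk 0.38, Mvd 0.42, Idi1 0.52, Fdps 0.70, Lss 0.85, Hsd17b7 0.35, Sc5d 0.24, Dhcr7 1.00, Srebf2 1.10, Insig2 0.91, Acaca 0.16, Fasn 0.48, Scd2 0.48 and Fads1 0.84. Differences between replicates 1 and 2 had correlations r of -0.08 to 0.05 over the 15 pairs of groups. The labels state no pairing, and such values cannot show whether same-numbered libraries share a culture or batch. With the replicate number as a block, 10 members passed between genotypes at 0 h, 18 at 4 h and 24 at 8 h, and 0 at 4 h and 14 at 8 h for the difference of changes; in time 23, 31 and 28 passed in WT and 23, 25 and 19 in KO.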

Other observations

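Genes of cholesterol uptake, efflux and esterification, listed apart from synthesis, did not share one direction. Over all tested genes 14.3% were higher and 11.5% lower in KO at 0 h, and 37.3% and 12.1% at 8 h. Of 13 tested uptake and intracellular transport genes, 2 were higher and 4 lower in KO cells at 0 h, and 4 and 5 at 8 h, where their median difference was 0.08 beside 0.20 over all genes. The lower ones included the lysosomal genes Npc2 (-0.52 ± 0.06 at 0 h, adjusted p = 5.49e-05, and -0.77 ± 0.06 at 8 h), whose product binds cholesterol freed in the lysosome, Lipa (-0.56 ± 0.08 and -0.84 ± 0.08), the acid lipase that frees it, and Npc1 (-0.44 ± 0.09 and -0.72 ± 0.09), which passes it to the membrane. Of 8 genes of the LXR pathway, efflux and esterification, 1 was higher and 3 lower at 0 h, and 1 and 5 at 8 h, with a median of -0.49. Abca1, a cholesterol exporter, was lower by -0.91 ± 0.14 at 0 h and -0.87 ± 0.14 at 8 h, and Soat1, which esterifies cholesterol for storage, by -0.60 ± 0.11 and -0.84 ± 0.11. Lpcat3, a phospholipid acyltransferase, was higher by 0.35 ± 0.08 and 1.16 ± 0.08. Of the 10 mature myeloid markers, 8 were lower and 1 higher in KO at 0 h, and 7 and 1 at 8 h. Csf1r and Adgre1, both macrophage genes, went opposite ways. At 0 h Csf1r had 150 and 184 TPM in WT and 61.6 and 62.4 in KO. Adgre1 had 269 and 289 in WT and 354 and 345 in KO. The part of these markers in the values above was not tested.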
